A study of Mus musculus with 23 samples.

Results

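Tyrobp, Fcer1g, Fcgr1, Fcgr2b, Fcgr3, Trem2, Pirb, Cd33, Syk and Emilin2 were followed as a group of myeloid ITAM and Fc receptor genes. They are 10 of the 20145 genes that the RefSeq accessions of the array's probes could name, and all 10 were among the 15202 genes whose signal was high enough to be tested. The probe of a gene was to be selected on its mean log2 intensity over the arrays, but each of the 10 genes had 1 probe, so no measured value decided between probes. Fcgr2b was spotted 10 times on each array and the others once. Emilin2 encodes an extracellular matrix glycoprotein that is no part of ITAM signalling, and it is kept here as the list gave it. The 10 genes were chosen with earlier results of these data known. Their counts beside the shares of all genes are therefore descriptions and no test of enrichment.

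The study asked how the leukaemic fusion protein RUNX1-ETO, the product of the t(8;21) translocation, changes gene expression at successive steps of blood cell formation. A mouse embryonic stem cell line (strain C57BL/6 in the labels) carried a human, HA-tagged RUNX1-ETO gene under a tetracycline-responsive promoter, in cells with wild-type Runx1. Colonies were picked one by one after targeting, and the cells of all groups, uninduced ones included, carried the transgene. Doxycycline (Dox, 0.1 µg per ml) was added at day 1 of blast culture, a culture of Flk1+ cells in which blood cells arise through endothelium. Cells were sorted at day 2 as haemogenic endothelium (HE, KIT+Tie2+CD41-), as cells in the transition from endothelium to blood (HE2, KIT+Tie2+CD41+) and as progenitors (KIT+Tie2-CD41+). Myeloid progenitors were grown from sorted progenitors in expansion medium with cytokines, and were induced for 12 h. HE, HE2 and myeloid progenitors had 3 arrays without Dox and 3 with Dox, and progenitors had 2 and 2. An additional array of uninduced progenitors, called both a technical replicate and replicate 3 in its labels, was normalized with the rest and left out of the comparisons, which therefore rested on 22 arrays. Induced myeloid progenitor array 3 is a biological replicate by its title and a technical replicate by its source name, so this group may hold 2 independent samples. It was kept as replicate 3, and without it 0 of the 10 genes were called with Dox in myeloid progenitors, as with it.

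An ITAM is a short tyrosine motif in the tail of an adaptor protein. When a receptor that pairs with the adaptor is engaged, Src-family kinases phosphorylate the motif, and the kinase SYK docks on it and starts signalling. Inhibitory receptors carry a related motif, the ITIM, which recruits phosphatases that dampen the signal. In macrophages, monocytes, granulocytes and mast cells this machinery serves phagocytosis, degranulation and responses to antibody.

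Levels are given as log2 normalised intensity, and changes as differences between group means on that scale. A gene was called where it differed at least 2-fold and limma gave an unadjusted P of at most 0.001. The adjusted P values (Benjamini-Hochberg) cover all 15202 genes. The titles call the 22 arrays biological replicates, without saying whether these came from separate cultures, so P values measure the spread between these arrays. In RNA from bulk populations, fewer cells that express a gene and less RNA of it per cell cannot be told apart. No cells without the transgene were given Dox, so effects of RUNX1-ETO and of Dox itself cannot be told apart either. Probes of Fcgr2b, Fcgr3 and Pirb may also bind transcripts of near-identical relatives, which was not tested.

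The probe for Runx1t1, the mouse counterpart of ETO, was read first as a check of the labels, although the sources used here do not say how well it binds the human transgene. It was higher on all induced than on all uninduced arrays of the same stage, with uninduced levels of 10.56 to 11.14 in HE, 9.74 to 10.11 in HE2, 7.50 to 7.92 in progenitors and 9.28 to 10.52 in myeloid progenitors, and induced levels of 11.81 to 12.44, 11.51 to 12.46, 11.05 to 12.30 and 11.93 to 12.13. Between 48.8% and 78.4% of spots were well above background on an array, the lowest share being that of induced progenitor array 2. Slides 1 and 2 carried the HE, HE2 and most progenitor arrays, while slide 3, scanned on the other of 2 days, carried all myeloid progenitor arrays, induced progenitor array 2 and the additional array. Dox comparisons in HE, HE2 and myeloid progenitors could thus be made within slides. The step from progenitors to myeloid progenitors could be read within slide 3 from 1 progenitor array a condition, which without Dox was the additional array. The mean level of 14 monocyte and macrophage markers was 7.35 to 7.63 on uninduced HE arrays and 10.24 to 11.05 on uninduced myeloid progenitor arrays. On the same myeloid progenitor arrays, 11 granulocyte markers averaged 6.93 to 7.26. Of these, 6 (Mpo, Elane, Prtn3, Ltf, Camp and Cebpe) were well above background on all 3 arrays, and 1 (Ngp) on none. Erythroid and megakaryocytic markers were high there, at 15.36 to 15.83 over 11 and 12.62 to 12.77 over 12 genes.

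RefSeq promoter windows (mouse build GRCm38.p6) were found for 9 of the 10 genes by symbol, and Tyrobp had no entry. The 250 bases before the first listed start site were searched on both strands for GAGGAA, a core sequence bound by PU.1 and related ETS factors, and for TGTGGT, a core sequence bound by RUNX proteins. GAGGAA or its reverse complement stood in 5 of the 9 windows (Fcgr1, Fcgr3, Trem2, Pirb and Cd33), compared with 23.1% of the windows of 27025 genes. TGTGGT stood in 1 of the 9, that of Cd33, compared with 14.2% of all windows. A match is a description of the letters and does not show binding, and a window without one says only that these letters are not in it. The windows of the 5 genes that were called lower with Dox in HE2 or in progenitors are shown from 5′ to 3′ along the gene, with matches in capitals. They are Fcer1g (chr1:171234350-171234599, minus strand), Fcgr2b (chr1:170976072-170976321, minus strand), Pirb (chr7:3720383-3720632, minus strand), Cd33 (chr7:43533172-43533421, minus strand) and Emilin2 (chr17:71311557-71311806, minus strand).
Fcer1g: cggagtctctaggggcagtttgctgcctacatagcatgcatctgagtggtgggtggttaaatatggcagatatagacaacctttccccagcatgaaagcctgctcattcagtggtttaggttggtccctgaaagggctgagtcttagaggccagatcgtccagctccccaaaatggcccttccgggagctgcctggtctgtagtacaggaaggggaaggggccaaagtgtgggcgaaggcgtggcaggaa
Fcgr2b: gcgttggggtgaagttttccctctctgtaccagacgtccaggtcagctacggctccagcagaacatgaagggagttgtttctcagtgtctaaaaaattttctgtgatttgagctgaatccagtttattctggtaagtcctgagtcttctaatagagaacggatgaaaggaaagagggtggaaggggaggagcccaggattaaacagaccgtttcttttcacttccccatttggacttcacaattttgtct
Pirb: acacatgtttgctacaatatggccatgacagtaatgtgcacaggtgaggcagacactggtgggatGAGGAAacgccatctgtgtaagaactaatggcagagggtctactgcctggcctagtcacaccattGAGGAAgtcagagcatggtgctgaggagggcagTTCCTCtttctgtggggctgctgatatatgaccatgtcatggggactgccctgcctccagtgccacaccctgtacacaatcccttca
Cd33: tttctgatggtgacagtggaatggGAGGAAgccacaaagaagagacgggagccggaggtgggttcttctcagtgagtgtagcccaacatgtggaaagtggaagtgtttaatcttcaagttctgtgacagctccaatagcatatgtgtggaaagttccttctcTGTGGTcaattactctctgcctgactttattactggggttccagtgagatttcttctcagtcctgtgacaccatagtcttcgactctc
Emilin2: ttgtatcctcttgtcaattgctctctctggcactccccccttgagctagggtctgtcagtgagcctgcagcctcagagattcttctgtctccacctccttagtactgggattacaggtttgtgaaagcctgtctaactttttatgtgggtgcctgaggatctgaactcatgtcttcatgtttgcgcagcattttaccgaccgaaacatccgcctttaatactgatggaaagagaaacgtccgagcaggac
The Pirb window held 3 matches to GAGGAA, which began 185, 120 and 87 bases before the start site, the last on the opposite strand. The Cd33 window held GAGGAA 226 bases and TGTGGT 88 bases before the start, while the windows of Fcer1g, Fcgr2b and Emilin2 held neither.

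Without Dox, 8 of the 10 genes were called higher at the step from HE to HE2, at that from HE2 to progenitors, or at both. The share of all genes called at either step was not counted. The shares at the single steps follow as descriptions, since the list was chosen with earlier results of these data known. From HE to HE2, 5 of 10 members were called higher (Tyrobp, Fcer1g, Fcgr3, Pirb and Emilin2), compared with 2.39% of all genes, and none was called lower. The median change of the 10 genes was 1.54, compared with 0.03 over all genes. From HE2 to progenitors, 6 of 10 were called higher (Tyrobp, Fcgr2b, Pirb, Cd33, Syk and Emilin2), compared with 1.78%. Every one of the 10 genes was higher on both progenitor arrays than on all 3 HE2 arrays. The share of all genes separated in this way was not counted. From progenitors to myeloid progenitors 3 of 10 were called higher (Fcgr1, Trem2 and Pirb), compared with 7%, and none was called lower. Trem2 reached the log2 level of 6.5 needed for testing only on myeloid progenitor arrays, which favoured its call at this step. Of the arrays of the fit, Fcgr1 reached it on 7, Fcgr2b on 5 and Cd33 on 6, all of progenitors or myeloid progenitors. This favoured the call of Fcgr1 at the last step and those of Fcgr2b and Cd33 from HE2 to progenitors. Consecutive steps share the arrays of the stage between them. In the last step the median of all genes was -0.12 and 50.2% of called genes were higher, whereas with scaling to the 75th percentile these values were -0.25 and 37.0%, and with that scaling too 3 members were called. Within slide 3, the uninduced myeloid progenitor arrays lay above the additional progenitor array by 1.48 for Fcgr1 and 2.03 for Pirb. For Trem2 the difference was 4.35, from a level that was not well above background on that array. Markers of cell types moved at the same 3 steps without Dox. Of 13 monocyte and macrophage markers 4, 3 and 8 were called higher and 0, 1 and 0 lower, and of 8 granulocyte markers 3, 3 and 0 were called higher and 0, 0 and 3 lower. Of 11 erythroid markers 3, 4 and 11 were called higher, with a median change of 4.73 at the last step, and of 12 megakaryocytic markers 5, 3 and 9, with a median of 3.19 there. Of 13 endothelial markers 0, 0 and 2 were called higher and 3, 7 and 2 lower. Their part in the changes of the 10 genes was not tested.

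**Figure D1:**
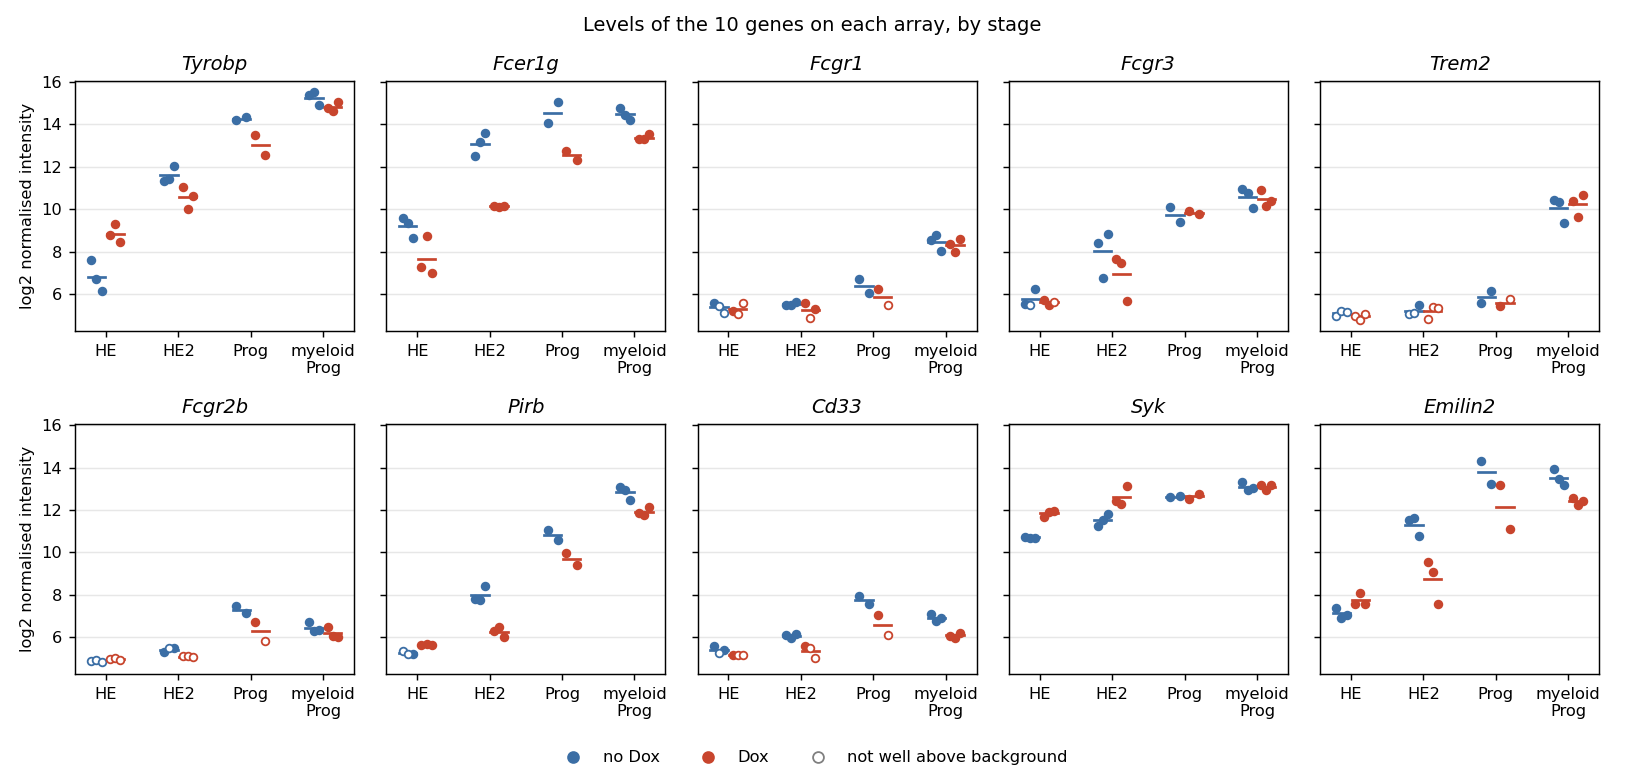
Log2 normalised intensity (vertical axis) of the 10 genes on each array of the fit at the 4 stages (horizontal axis); points are arrays, lines are group means, blue is without and red with Dox, and open points were not well above background. Without Dox, Tyrobp climbs from 6.14 to 7.58 in HE to 14.90 to 15.51 in myeloid progenitors, whereas Trem2 stays at or below 6.15 until the myeloid progenitor stage.

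Tyrobp encodes DAP12, the ITAM adaptor of TREM2 and of many activating receptors of myeloid and natural killer cells. Its level without Dox was 7.58, 6.71 and 6.14 in HE, 11.32, 11.44 and 12.04 in HE2, 14.23 and 14.33 in progenitors and 15.39, 15.51 and 14.90 in myeloid progenitors. The arrays of successive stages did not overlap at any of these steps. The rise from HE to HE2 was 4.79 ± 0.354 (SE; limma, adjusted P = 1.31e-07), the greatest of the 10 genes, and that from HE2 to progenitors was 2.68 ± 0.396 (limma, adjusted P = 1.56e-04). The further difference of 0.99 ± 0.396 to myeloid progenitors was not called (limma, adjusted P = 0.0631).

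Fcer1g encodes the common gamma chain, the ITAM adaptor of the high-affinity IgE receptor and of activating IgG receptors. Without Dox it read 9.60, 9.35 and 8.62 in HE, 12.51, 13.19 and 13.59 in HE2, 14.06 and 15.05 in progenitors and 14.77, 14.45 and 14.21 in myeloid progenitors. It was therefore already well above background in HE, and had reached its upper range at the progenitor stage. The rise from HE to HE2 was 3.91 ± 0.382 (limma, adjusted P = 2.83e-06), and the difference of 1.46 ± 0.427 from HE2 to progenitors was not called (limma, adjusted P = 0.041). It passed without induced HE array 2 in the fit, and with an adjusted P of 0.05 as the limit.

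The activating receptors were called at different steps. Fcgr3, the low-affinity activating IgG receptor that signals through the gamma chain, read 5.52, 5.49 and 6.25 in HE, 8.40, 6.76 and 8.85 in HE2, 10.10 and 9.38 in progenitors and 10.98, 10.74 and 10.05 in myeloid progenitors. Its rise of 2.25 ± 0.498 from HE to HE2 passed the threshold (limma, adjusted P = 0.0063), but missed it when any of HE arrays 1 or 2 or HE2 arrays 1 or 3 was left out, with values of 1.83 to 2.14. Fcgr1, the high-affinity IgG receptor, lay between 5.11 and 5.61 on all uninduced HE and HE2 arrays, at 6.72 and 6.07 in progenitors and at 8.56, 8.77 and 8.01 in myeloid progenitors. Only the last of these steps was called for Fcgr1, with a rise of 2.05 ± 0.291 (limma, adjusted P = 4.17e-05). Fcgr1 reached the log2 level of 6.5 needed for testing mainly on myeloid progenitor arrays, and on none of HE or HE2, which favoured this call. Trem2, a lipid-sensing receptor of macrophages and microglia that signals through DAP12, was not well above background on any HE array and read 5.58 and 6.15 in uninduced progenitors. On the uninduced myeloid progenitor arrays it read 10.45, 10.35 and 9.36, a rise of 4.18 ± 0.319 (limma, adjusted P = 4.04e-08). This was the greatest change of the 10 genes at that step. Trem2 reached the log2 level of 6.5 needed for testing on 6 arrays, all of them of myeloid progenitors. It was thus tested only through the stage where it is high, and its P value is no independent test of the rise. Both progenitor arrays on the slide of the myeloid progenitors lay within the range of the other progenitor arrays (5.44 to 6.15), at 5.70 on the additional uninduced array and 5.75 on induced array 2. On neither was Trem2 well above background. The induced myeloid progenitor arrays read 10.37, 9.64 and 10.65.

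Among the inhibitory receptors, Pirb rose at each step. It encodes the paired immunoglobulin-like receptor B, an ITIM receptor for MHC class I, and read 5.35, 5.22 and 5.22 in HE, 7.82, 7.76 and 8.39 in HE2, 11.05 and 10.58 in progenitors and 13.08, 12.94 and 12.46 in myeloid progenitors without Dox. The rises were 2.73 ± 0.215, 2.82 ± 0.241 and 2.01 ± 0.241 (limma, adjusted P = 2.17e-07, 8.58e-07 and 6.93e-06). In uninduced HE it was well above background on only 1 of 3 arrays, so the first of these rises starts from a level near background. Pirb was the only gene of the 10 that was called at all 3 steps without Dox. Fcgr2b, the inhibitory IgG receptor, and Cd33, a sialic acid-binding receptor, had a different course in the fit. Cd33 is only listed here as inhibitory, and the function of the mouse protein was not tested. Both genes had their highest uninduced group means in progenitors. Fcgr2b read 7.45 and 7.12 there and 6.71, 6.28 and 6.33 in myeloid progenitors, and Cd33 read 7.92 and 7.58 and then 7.11, 6.76 and 6.91. Their rises from HE2 to progenitors were 1.87 ± 0.224 and 1.68 ± 0.235 (limma, adjusted P = 2.32e-05 and 9.37e-05). The later differences of -0.85 and -0.82 did not reach 2-fold, although no arrays of the fit overlapped (limma, adjusted P = 0.00772 and 0.0121). These uninduced progenitor arrays lay on slides 1 and 2 and the myeloid progenitor arrays on slide 3. Within slide 3, against the additional array, the differences were -0.20 for Fcgr2b and -0.53 for Cd33. With Dox they were -0.09 and -0.49, and within slide 3, from an induced progenitor array near background, 0.36 and -0.01.

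Syk, the kinase that binds phosphorylated ITAMs, was well above background on every array. Without Dox it read 10.73, 10.69 and 10.70 in HE, 11.27, 11.53 and 11.83 in HE2, 12.60 and 12.64 in progenitors and 13.32, 12.95 and 13.02 in myeloid progenitors. Of these steps only that from HE2 to progenitors was called, at 1.08 ± 0.222 (limma, adjusted P = 0.00361), and the call was lost without HE2 array 1 (0.94) or without progenitor array 1 (1.10) or 2 (1.06). Emilin2 read 7.40, 6.91 and 7.05 in HE, 11.52, 11.61 and 10.76 in HE2, 14.32 and 13.25 in progenitors and 13.93, 13.46 and 13.17 in myeloid progenitors. It rose by 4.18 ± 0.486 from HE to HE2 and by 2.49 ± 0.544 from HE2 to progenitors (limma, adjusted P = 1.96e-05 and 0.00584). The second of these calls was lost without HE2 array 3 (2.22) or progenitor array 1 (1.95).

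In HE, 3 of the 10 genes were called with Dox, not all in the same direction. Tyrobp and Syk were called higher, compared with 4.7% of all genes, and Fcer1g was called lower, compared with 2.39%. The median change of the 10 genes was 0.01, compared with -0.01 over all genes. Tyrobp read 8.80, 9.30 and 8.45 with Dox, all above the 3 uninduced HE arrays, a rise of 2.04 ± 0.354 or 4.11-fold (limma, adjusted P = 5.29e-04). Within slides the difference was 1.65 on slide 1 and 2.74 on slide 2. Syk read 11.68, 11.89 and 11.97, again with no overlap, a rise of 1.15 ± 0.198 or 2.21-fold (limma, adjusted P = 5.16e-04).

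Fcer1g, the other adaptor, moved the opposite way from Tyrobp in HE. With Dox it read 7.27, 8.72 and 7.0, a difference of -1.53 ± 0.382 (limma, adjusted P = 0.00965). The arrays overlapped, since induced array 2 lay above uninduced array 3, and the call lay just inside the threshold, with an unadjusted P of 8.74e-04 in limma. It was lost when single arrays were left out of either HE group, with values of -1.19 without induced array 3, -1.33 without induced array 1, -1.32 without uninduced array 1 and -1.45 without uninduced array 2. It was also lost when some arrays of other stages were left out, with the deposited normalized values (-1.38) and with an offset of 50 (-1.36). The other 7 genes were not called in HE. Among them Emilin2 differed by 0.63 ± 0.486 and Pirb by 0.37 ± 0.215 with all induced arrays above all uninduced ones, and Trem2 and Fcgr2b were not well above background in either group.

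In HE2 the direction was mostly downward. With Dox, Fcer1g, Pirb and Emilin2 were called lower, compared with 2.05% of all genes, Syk was called higher, compared with 5.17%, and 9 of the 10 genes had a lower mean. The median change was -0.87, compared with -0.03 over all genes. Fcer1g read 10.14, 10.10 and 10.17 with Dox, against 12.51 or more on each uninduced HE2 array, and fell by 2.96 ± 0.382, or 7.78-fold (limma, adjusted P = 3.83e-05). Pirb read 6.31, 6.46 and 6.01, against 7.76 or more, and fell by 1.73 ± 0.215, or 3.31-fold (limma, adjusted P = 2.68e-05). Emilin2 read 9.55, 9.05 and 7.57, against 10.76 or more, and fell by 2.57 ± 0.486, or 5.95-fold (limma, adjusted P = 0.00116). For each of these 3 genes the groups did not overlap, and the difference was negative within slide 1 (Fcer1g -2.71, Pirb -1.47, Emilin2 -2.02) and within slide 2 (-3.46, -2.16 and -2.45).

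Tyrobp in HE2 read 11.06, 10.02 and 10.62 with Dox, below all 3 uninduced arrays, with a difference of -1.03 ± 0.354 that was not called (limma, adjusted P = 0.0533). Cd33 was lower on all induced HE2 arrays as well (-0.71 ± 0.211; limma, adjusted P = 0.0258), and did not reach 2-fold. Syk read 12.43, 12.31 and 13.13, above all uninduced HE2 arrays, a rise of 1.08 ± 0.198 or 2.12-fold (limma, adjusted P = 9.14e-04). This call was lost without uninduced array 1 (0.94) or induced array 3 (0.83). Fcgr3 ranged from 5.65 to 7.67 with Dox and from 6.76 to 8.85 without, so that its difference of -1.08 ± 0.498 was within overlapping groups (limma, adjusted P = 0.158). Fcgr1, Trem2 and Fcgr2b, low in uninduced HE2, differed by -0.28, -0.02 and -0.33 and were not called, and Trem2 and Fcgr2b were well above background on none of the induced HE2 arrays.

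**Figure D2:**
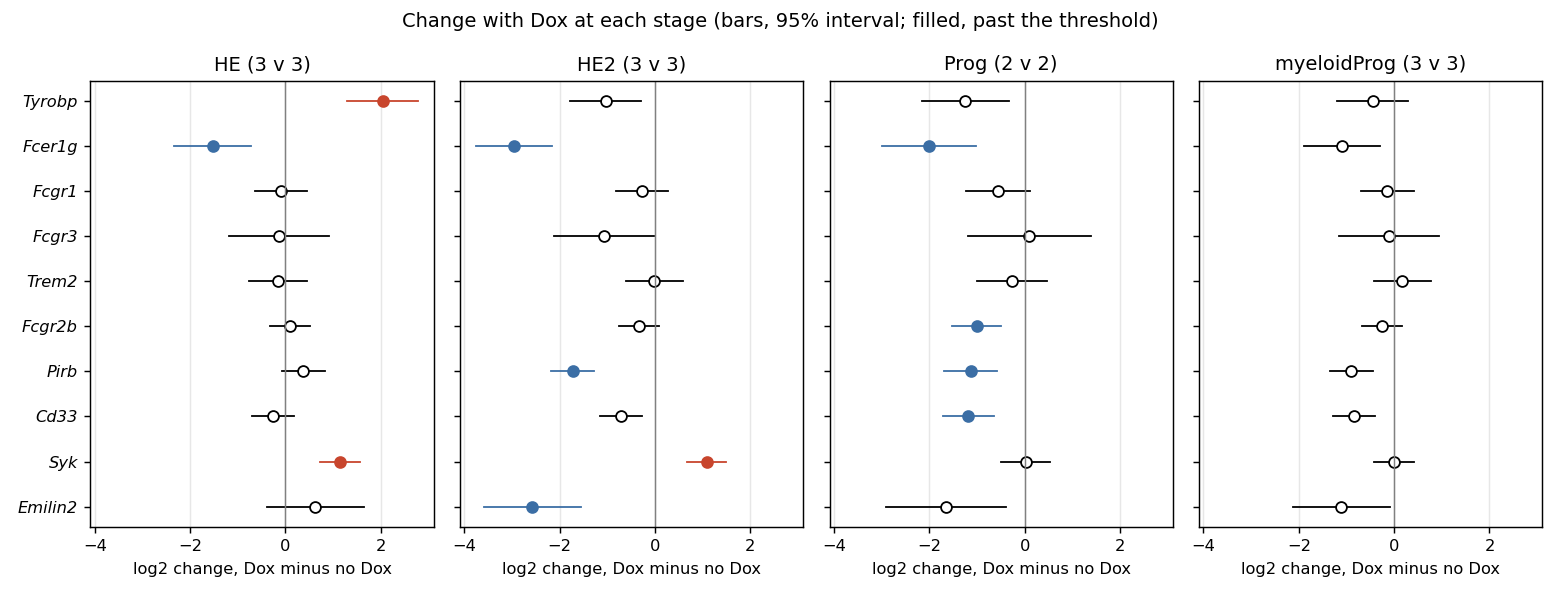
Log2 change with Dox (horizontal axis) of each of the 10 genes (vertical axis) in HE, HE2, progenitors and myeloid progenitors; points are differences of group means, bars are 95% confidence intervals from limma, and filled points passed the threshold, red for higher and blue for lower. Tyrobp lies at 2.04 in HE and at -1.03 in HE2, whereas Syk lies at 1.15 and 1.08.

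The difference between the responses of HE2 and HE was tested as an interaction, and 3 of the 10 genes were called lower, compared with 0.71% of all genes. Tyrobp responded by 3.07 ± 0.501 less in HE2 than in HE (limma, adjusted P = 0.00862), Emilin2 by 3.20 ± 0.688 less (limma, adjusted P = 0.0324) and Pirb by 2.10 ± 0.305 less (limma, adjusted P = 0.00531). The HE level of Pirb without Dox lay near background (1 of 3 arrays well above it), which limits how far a fall of Pirb in HE could have been read. All 3 kept the call when any single array was left out and under each of the other alternatives tried. The same values describe the step from HE to HE2 under both conditions, since they use the same arrays. Without Dox, Tyrobp, Emilin2 and Pirb rose by 4.79, 4.18 and 2.73, and with Dox the differences were 1.72, 0.98 and 0.63, of which only that of Tyrobp was called. The 0.98 of Emilin2 varied with single arrays, from 0.57 without induced HE2 array 1 to 1.55 without induced HE2 array 3, and was called in neither case. For Syk, the interaction was -0.06 (95% confidence interval -0.65 to 0.53). For Fcer1g it was -1.43 ± 0.541 and was not called (limma, adjusted P = 0.347).

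**Figure D3:**
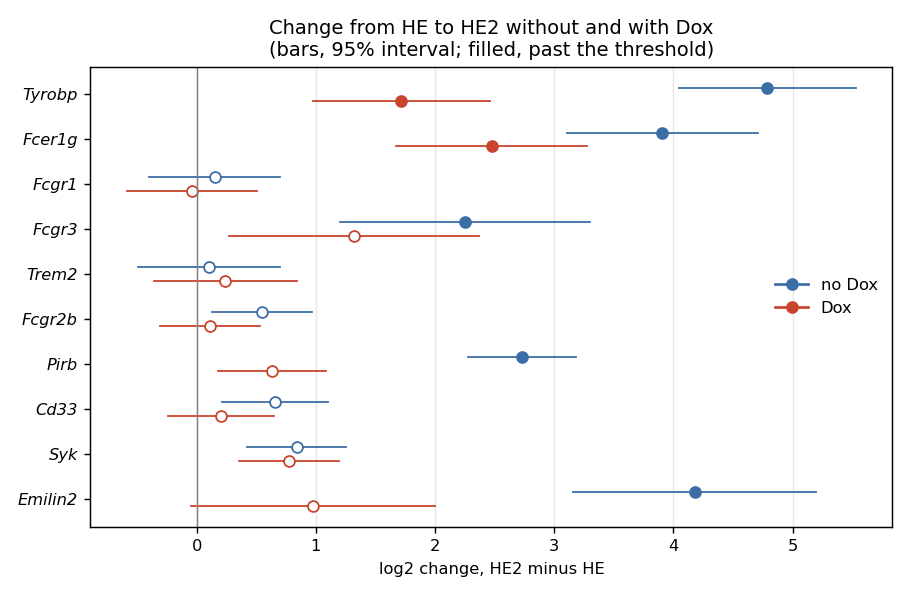
Log2 change from HE to HE2 (horizontal axis) of each of the 10 genes (vertical axis) without Dox in blue and with Dox in red; points are differences of group means, bars are 95% confidence intervals from limma, and filled points passed the threshold. For Tyrobp, Emilin2 and Pirb the changes are 4.79, 4.18 and 2.73 without Dox and 1.72, 0.98 and 0.63 with Dox.

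With Dox, 2 of 10 genes were called higher from HE to HE2 (Tyrobp and Fcer1g), compared with 1.62% of all genes. The call of Tyrobp was lost, and the count fell to 1, without induced HE array 3 (1.52) or induced HE2 array 1 (1.47), and Fcgr3 was also called without induced HE2 array 3 (1.96). From induced HE2 to induced progenitors 7 of 10 were called higher, compared with 2.02%, namely Tyrobp (2.47 ± 0.396), Fcer1g (2.41 ± 0.427), Fcgr3 (2.92 ± 0.557), Pirb (3.43 ± 0.241), Cd33 (1.21 ± 0.235), Emilin2 (3.41 ± 0.544) and Fcgr2b. Fcgr2b was well above background on 0 of 3 induced HE2 arrays and was not on induced progenitor array 2. Its value of 1.20 ± 0.224 (limma, adjusted P = 0.00123) is therefore a difference of fitted means from background, and no bound. Without induced progenitor array 1 it was 0.74. Cd33 was well above background on 1 of the 3 induced HE2 arrays. The calls of Fcgr2b and Cd33 were both lost, leaving 5, with an offset of 50 (0.74 for Fcgr2b and 0.80 for Cd33), with the deposited log2 values (0.75 and 0.81) and with scaling to the 75th percentile (1.28 and 1.28). The count fell to 4 without induced progenitor array 1. From induced progenitors to induced myeloid progenitors 4 of 10 were called higher, compared with 4.86%, namely Trem2 (4.63 ± 0.319), Fcgr1 (2.46 ± 0.291), Pirb (2.24 ± 0.241) and Tyrobp (1.78 ± 0.396). Trem2 was again tested only through the myeloid progenitor arrays, and Fcgr1 only through those and uninduced progenitor arrays. On induced progenitor array 2, Trem2 and Fcgr1 were not well above background, so their rises start near background. The call of Tyrobp was lost without induced progenitor array 2 (1.30), the only one of these progenitor arrays on the slide of the myeloid progenitors, or without induced myeloid progenitor array 3 (1.66), and with scaling to the 75th percentile (1.49), which left 3 genes called.

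In progenitors, 4 of the 10 genes were called lower with Dox, compared with 0.704% of all genes, and none was called higher. The median change was -1.06, compared with -0.04 over all genes. Fcer1g read 12.75 and 12.34 with Dox (-2.01 ± 0.468; limma, adjusted P = 0.0145), and Pirb read 9.99 and 9.39 (-1.13 ± 0.264; limma, adjusted P = 0.0149). Cd33 read 7.06 and 6.09 (-1.18 ± 0.258; limma, adjusted P = 0.00942), and Fcgr2b read 6.74 and 5.82 (-1.0 ± 0.246; limma, adjusted P = 0.0201). All 4 were lower on both induced than on both uninduced arrays, as were Tyrobp, at 13.52 and 12.55, and Emilin2, at 13.19 and 11.08, which were not called (limma, adjusted P = 0.11 and 0.124). Emilin2 differed by -1.65, and by -2.70, which was called, without induced progenitor array 1. Syk, at 12.52 and 12.77, differed by 0.02 ± 0.243, and Fcgr3, at 9.90 and 9.79, by 0.10 ± 0.61.

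The calls in progenitors rested on 2 arrays a group and on induced array 2, which lay on slide 3 and had the lowest share of spots above background. Without that array none of the 4 genes was called, with values of -1.81 for Fcer1g, -0.83 for Pirb, -0.69 for Cd33 and -0.55 for Fcgr2b. With the slide as a block none was called either, at -1.68, -0.81, -0.75 and -0.57. Leaving out uninduced array 1 left 1 call and uninduced array 2 left 2. The call of Fcgr2b lay just inside both limits of the threshold, and missed it in 18 of 36 settings, among them the additional progenitor array as replicate 3 (-0.79). On 1 of the 2 induced progenitor arrays, Fcgr2b and Cd33 were not well above background. Between the uninduced and the induced array on slide 1, the differences were -1.31 for Fcer1g, -1.06 for Pirb, -0.86 for Cd33 and -0.71 for Fcgr2b.

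In myeloid progenitors none of the 10 genes was called with Dox in the limma fit, while 1.18% of all genes were called lower. Pirb read 11.88, 11.78 and 12.13, below all 3 uninduced arrays (-0.90 ± 0.215; limma, adjusted P = 0.00799), and Cd33 read 6.08, 5.98 and 6.18, likewise below (-0.85 ± 0.211; limma, adjusted P = 0.0103). Neither reached 2-fold, but without uninduced array 3 Pirb did, at -1.08, and was called. Fcer1g read 13.30, 13.30 and 13.55 (-1.09 ± 0.382; limma, adjusted P = 0.0673), and Emilin2 read 12.57, 12.25 and 12.41 (-1.10 ± 0.486; limma, adjusted P = 0.157). Both were lower on every induced array, passed 2-fold and missed the P threshold. In a fit of the myeloid progenitor arrays alone these 2 were called. The mean differences of Tyrobp (-0.45), Fcgr1 (-0.14), Fcgr3 (-0.11), Fcgr2b (-0.25), Trem2 (0.17) and Syk (-0.00) lay within overlapping arrays.

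The change of the response from HE2 to progenitors and from progenitors to myeloid progenitors was also tested in the limma fit. None of the 10 genes was called at either step. Few genes were called at all: of 15202, 36 were higher and 62 lower at the first, and 127 and 101 at the second. The absence of calls among 10 genes lies near these shares and does not show that the responses were alike. At the first of these steps Syk differed by -1.06 ± 0.314 (limma, adjusted P = 0.243) and Fcgr2b by -0.67 ± 0.317 (limma, adjusted P = 0.615). At the second Fcgr2b differed by 0.75 ± 0.317 (limma, adjusted P = 0.329). These had an unadjusted P under 0.05, a limit at which the share of all genes was not counted. Without induced progenitor array 1, Fcgr2b was called at the second step, at 1.21.

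Other genes of the pathway, from lists that hold none of the 10, were counted with the same threshold. These lists too were chosen with earlier results of these data known. Over all genes, the shares called higher with Dox were 4.7%, 5.17%, 3.03% and 5.13% in HE, HE2, progenitors and myeloid progenitors, and the shares called lower were 2.39%, 2.05%, 0.704% and 1.18%. Of 32 listed adaptors and activating receptors, 21 were tested, and with Dox 3, 3, 3 and 0 were called higher and 0, 1, 1 and 2 lower in HE, HE2, progenitors and myeloid progenitors. Clec1b, the platelet receptor CLEC-2 with a single ITAM-like motif, rose by 2.84 ± 0.27, 3.13 ± 0.27 and 2.11 ± 0.331 at the first 3 stages (limma, adjusted P = 1.17e-06, 6.49e-07 and 6.10e-04). Treml1, a TREM-like protein of platelets, rose by 3.50 in HE2 and 3.60 in progenitors, and Clec9a, a dendritic cell receptor for dead cells, by 1.80, 2.60 and 1.67 in HE, HE2 and progenitors. In HE the third gene called was Cd79b, the B cell receptor adaptor, which rose by 2.14. Cd300lb, a DAP12-coupled receptor, fell by 1.03, 1.45 and 1.26 in HE2, progenitors and myeloid progenitors, and Gp6, the platelet collagen receptor that pairs with the gamma chain, fell by 1.60 in myeloid progenitors. Clec1b, Treml1 and Gp6 also stand among the megakaryocytic markers. The median changes of the list were 0.10, -0.07, -0.41 and -0.25.

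Of 19 listed inhibitory receptors 16 were tested, with 2, 3, 2 and 2 called higher and 0, 1, 2 and 2 lower at the 4 stages. Lilrb4a rose by 3.23 in HE and 1.94 in HE2, and Cd200r1, the receptor of CD200, rose by 2.72, 1.85 and 1.24 in HE, HE2 and myeloid progenitors. Siglecf, a sialic acid-binding receptor of eosinophils and of the same family as Cd33, fell by 2.27, 1.51 and 2.25 in HE2, progenitors and myeloid progenitors, and Pilra fell by 1.72 and 1.31 at the last 2 stages. Esam, an endothelial adhesion molecule that also stands among the endothelial markers, rose by 1.38, 1.83 and 2.16 from HE2 onward, and Cd22 rose by 1.33 in progenitors. The median changes were 0.10, 0.07, 0.18 and -0.14, while those of the 10 genes in HE2 and progenitors were -0.87 and -1.06. Called genes of the list went both ways, and the difference between the medians was not tested.

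Downstream of the receptors, all 44 listed kinases and signalling proteins were tested, with 9, 4, 0 and 1 called higher and 5, 7, 3 and 2 lower. In HE the greatest rises were those of Pik3cd, a leukocyte PI3-kinase subunit (2.20), Ncf4, a subunit of the phagocyte oxidase (1.89), and Zap70, the kinase of the SYK family in T cells (1.83). The greatest falls in HE were those of the adaptors Lat (-1.98) and Dok2 (-1.72) and of the exchange factor Vav1 (-1.34). In HE2 Dok2 fell by 2.08, the oxidase subunit Ncf1 by 1.97 and the phosphatase Ptpn6 (SHP-1) by 1.38, while Ncf4 rose by 1.68, the Src-family kinase Fyn by 1.20 and the exchange factor Vav3 by 1.17. Ncf1 also fell by 1.94 in progenitors and by 2.16 in myeloid progenitors, next to Card9 (-1.65) and the Src-family kinase Fgr (-1.37) in progenitors and Lat (-1.53) in myeloid progenitors, where Vav3 rose by 1.10. The median changes were 0.15, -0.04, -0.17 and -0.33. Of the 4 relatives of Emilin2 in the EMILIN and multimerin family, 1 was called, the endothelial gene Mmrn2, which rose by 2.60, 3.51 and 2.99 from HE2 onward.

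**Figure D4:**
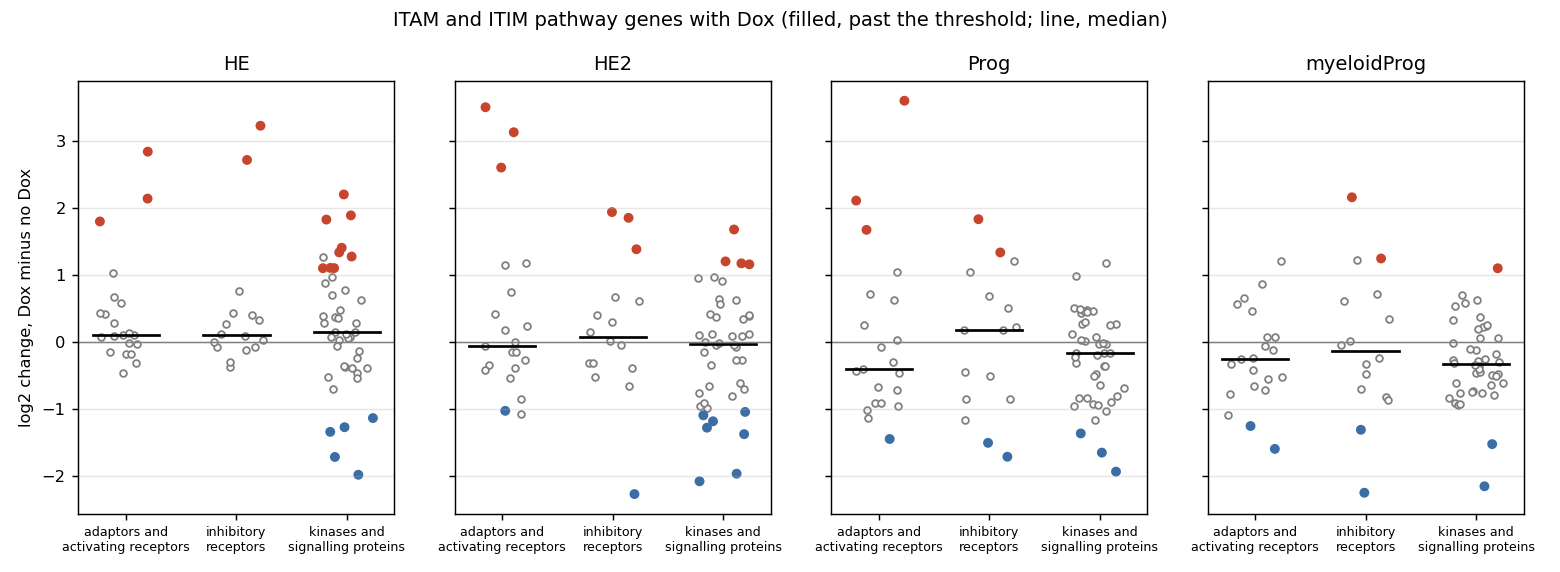
Log2 change with Dox (vertical axis) of the tested pathway genes other than the 10, in 3 lists (horizontal axis) at each of the 4 stages; points are genes, filled points passed the threshold (red higher, blue lower) and lines are list medians. Among kinases and signalling proteins 9 genes were called higher and 5 lower in HE, and 4 higher and 7 lower in HE2.

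Markers of other cell types also moved with Dox at the stages described above. Of 13 endothelial markers tested 0, 4, 6 and 10 were called higher in HE, HE2, progenitors and myeloid progenitors, and 1, 0, 0 and 1 lower. Their mean level in HE2 was 12.12 to 12.74 without and 13.20 to 13.67 with Dox. Of 11 erythroid markers 4, 6, 6 and 0 were called higher, and their mean level in HE2 was 9.58 to 10.25 without and 11.26 to 11.58 with Dox. Monocyte and macrophage markers averaged 8.03 to 8.09 in uninduced and 7.67 to 7.85 in induced HE2, and of 13 tested 1 was called higher at each stage and 0, 2, 1 and 1 lower. Of 8 granulocyte markers none was called higher, and 0, 2, 2 and 0 were called lower. Of 12 megakaryocytic markers 1, 3, 3 and 0 were called higher and 2, 1, 0 and 6 lower, with a median change of -1.07 in myeloid progenitors, where their mean level was 12.62 to 12.77 without and 11.81 to 11.97 with Dox. Of 7 lymphoid markers 1 was called higher in HE and 1 lower in progenitors. Of 7 mast cell and basophil markers tested, 2, 1, 2 and 3 were called higher and none lower at the 4 stages. The part of these populations in the changes of the 10 genes was not tested.

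The 10 genes did not follow 1 common course. Over the 22 arrays, Pearson correlations between pairs of them ranged from 0.40 to 0.97 with a median of 0.80 over 45 pairs. These arrays share stages, slides and treatment, so the values are descriptions. The genes most like Tyrobp across the arrays were Cd52 (r = 0.99), Adcy7 (0.99), Myo1f (0.98), Btk (0.98) and Arhgap9 (0.98), and among the 10 the closest was Pirb (0.95), at position 30. The genes most like Emilin2 were Tuba8 (0.99), Ccl9 (0.98), Hp (0.98), Ccl3 (0.98) and Coro1a (0.97), and the closest of the 10 was Tyrobp (0.94), at position 38.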

How the data were processed

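Labelled RNA of 23 samples was read on 1-colour Agilent mouse arrays (SurePrint G3) on 3 slides. The authors deposited the median intensity and background of each spot, with the flags of Feature Extraction (10.7.1.1 in the submitters' processing notes, 10.7.3.1 in the file headers), and a table of log2 values that they had normalized, used here as an alternative. In that table, 17 of 23 columns were most like their own array, and replicates 2 and 3 were exchanged within 3 induced groups (HE, HE2, myeloid progenitors), which leaves group means as they are. No column of it lacked a sample.

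Intensities were background-corrected by normexp (offset 16) on all spots, 3671 control spots and spots marked as outliers were left out, and the arrays were quantile normalized. Of 55681 probes, 26582 were named through RefSeq accessions (GRCm38.p6, names only). Genes that reached a log2 intensity of 6.5 on any array were tested with lmFit and eBayes (limma 3.58.1, R 4.3.3), with a mean for each of 8 groups and 14 residual degrees of freedom, after a check on simulated data. Tables were read with version 1.17.8 of data.table. The number of arrays limits the precision. No 2 arrays held identical values.

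The members and the pathway and marker lists were chosen with earlier results of these data known, and 1 gene of the list of kinases and signalling proteins is not reported here. All 10 members are named. From each pathway list up to 3 of the greatest rises and falls among called genes were named for each Dox comparison, and the 5 genes most correlated with Tyrobp and with Emilin2. There were 14 alternatives planned and 1 added after seeing the data. Replicate numbers were taken to pair uninduced HE with uninduced HE2 arrays, since same-numbered arrays deviated together from their group means (r = 0.39, 0.79 and 0.61 across genes), and no other groups.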

Additional observations from a re-analysis of the deposited data

Results flagged for a closer look

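For 3 of the 10 genes, HE2 and HE responded differently to Dox by the test of the difference itself (the interaction term in limma). It was lower in HE2 by 3.07 for Tyrobp (-3.07, log2), by 3.20 for Emilin2 (-3.20) and by 2.10 for Pirb (-2.10). Tyrobp rose in HE and was lower, without being called, in HE2, whereas Emilin2 and Pirb fell in HE2 and were not called in HE. Both responses rest on 3 arrays a group, and Pirb in uninduced HE was well above background on 1 of 3 arrays. Groups of 3 or fewer arrays are too small for the check on single outlying arrays used here.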

How the results depend on the processing

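No value that was called changed sign under any alternative. Counts of called members moved under several alternatives for Dox in progenitors, from 4 to 2 with an offset of 50, to 1 with scaling to the 75th percentile, to 2 with the deposited log2 values, to 0 with only the groups compared in the fit and to 0 with the slide as a block, and ranged from 0 to 4 when single arrays were left out. With only the groups compared, the counts were 2 in place of 4 for Dox in HE2, 2 in place of 0 for Dox in myeloid progenitors and 3 in place of 7 from HE2 to progenitors with Dox. With a 2-fold change alone, 2 genes in place of 0 passed for Dox in myeloid progenitors and 2 in place of 0 for the difference in response between progenitors and HE2. When single arrays were left out, counts ranged from 0 to 1 for Dox in myeloid progenitors, from 1 to 3 from HE to HE2 with Dox, from 4 to 7 from HE2 to progenitors with Dox and from 0 to 1 for the difference in response between myeloid progenitors and progenitors. From HE2 to progenitors without Dox, the call of Syk was lost without uninduced HE2 array 1 and that of Emilin2 without uninduced HE2 array 3. Fcer1g was called at this step without induced HE array 2. The fall of Fcer1g in HE missed the threshold in 23 of 36 settings and that of Fcgr2b in progenitors in 18 of 36. Where no further value is given, the cause was not tested.

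With the replicate number as a block, 2 genes in place of 4 were called for Dox in progenitors, and the calls of Fcer1g in HE and of Tyrobp from progenitors to myeloid progenitors with Dox were also lost. From uninduced HE to HE2, the only groups taken as paired, the same 5 genes were called with the block. Exchanging replicates 2 and 3 of 3 induced groups in the block, as in the deposited table and chosen after seeing the data, gave 3 genes for Dox in progenitors and 2 in HE. Low signal limits Trem2, Fcgr1, Fcgr2b and Cd33 in HE and HE2 and Pirb and Fcgr3 in HE, where arrays read near background and the offset compresses differences.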

Other observations

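The additional array of uninduced progenitors, which was in no comparison, read 13.88 for Tyrobp, 14.41 for Fcer1g, 6.97 for Fcgr1, 10.38 for Fcgr3, 5.70 for Trem2, 6.64 for Fcgr2b, 10.80 for Pirb, 7.46 for Cd33, 12.55 for Syk and 13.10 for Emilin2. For Tyrobp, Fcgr2b, Cd33, Syk and Emilin2 these values lay below both uninduced progenitor arrays of the fit, and for Fcgr1 and Fcgr3 above both. Tyrobp, Fcer1g, Fcgr1, Fcgr3, Pirb and Cd33 lay above both induced progenitor arrays. With this array as replicate 3, Fcgr2b was no longer called with Dox in progenitors (-0.79; unadjusted P = 0.00467 in limma), and Fcgr1 (1.07) and Fcgr3 (1.95) were also called from HE2 to progenitors without Dox.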
